A study of Mus musculus with 18 samples.

Results

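The small proline-rich (Sprr) genes were described here through every probe set that the platform annotation assigns to exactly 1 of 10 named members, Sprr1a, Sprr1b, Sprr2b, Sprr2d, Sprr2e, Sprr2f, Sprr2h, Sprr2i, Sprr3 and Sprr4. The rule found 7 probe sets among 45037, 1 each for 7 members, and none for Sprr2b, Sprr2e or Sprr4. The probe set of Sprr3 read 6.68 on every array and gives no information, so 6 members were measured. A probe set counts as varying when its range over the 18 arrays is at least 0.01, and 11946 of the 45037 vary.

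Sprr proteins are short, proline-rich precursors of the cornified envelope, the protein shell that replaces the plasma membrane of dying keratinocytes. Transglutaminases cross-link them to loricrin, involucrin and to each other, and the mix of precursors is thought to set the stiffness of the envelope. The genes lie together in the epidermal differentiation complex, a chromosomal cluster of envelope genes, and several are known to be induced in wounded or irritated epidermis.

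All RNA came from dorsal skin of male albino hairless mice of the HR-1 strain, 6 weeks old per the labels. NT mice were not tape-stripped. TS mice were stripped with cellophane tape on the left side of the back 3 times per week for 4 weeks, each time until water loss through the skin reached 70 to 100 g/m2/h. WB mice were stripped likewise and were dosed orally with an extract of winged bean (200 mg/kg/day), suspended in 0.3% carboxymethylcellulose. Dosing took place on 5 occasions per week over 5 weeks, beginning 1 week ahead of the first stripping. Each group has 6 arrays, labelled as biological replicates. The sources used here do not say whether NT and TS mice received the vehicle. Whole skin was taken, so fewer cells of a type and less RNA per cell cannot be told apart.

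Values are the deposited ones, read as log2, and ± gives the SD over 6 arrays. No source names the log base, so a fold rests on base 2, and it is given only where the lower group mean lies above the middle of the array medians (6.94). The RNA measures of the WB arrays stood apart. Beta-actin control probe sets at the 3' and 5' ends of the transcript differed (3' minus 5') by 5.27 to 5.96 on the WB arrays. The same difference lay between -0.65 and -0.38 on the NT arrays and between 0.083 and 0.26 on the TS arrays. The Gapdh difference was 3.45 to 4.41 in WB, while all other arrays lay below 0. Every comparison that uses WB stands beside that difference, and its part in the results was not tested. For NT, TS and WB in turn, the mean of 18 epidermal keratinocyte markers ran from 10.87 to 11.26, from 11.50 to 11.84 and from 10.87 to 11.32. That of 10 skeletal muscle markers ran from 12.52 to 14.30, from 10.37 to 11.23 and from 6.37 to 8.28, and that of 6 adipocyte markers from 11.19 to 11.92, from 9.61 to 10.40 and from 8.23 to 8.65. Macrophage and dendritic cell markers ran from 10.42 to 11.04, from 9.60 to 10.02 and from 7.64 to 8.04, and mast cell markers from 8.90 to 9.77, from 9.63 to 10.19 and from 7.61 to 7.87. All 7 varying hair follicle markers fell in TS against NT. NT 5 stood apart with a liver marker mean of 15.61, beside 6.29 to 6.44 on all other arrays.

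In the RefSeq gene table (GRCm38.p6) the family fills 1 stretch of chromosome 3 with 17 entries, pseudogenes included. The Sprr2 genes come first, with Sprr2d, Sprr2f, Sprr2h and Sprr2i in that order, followed by Sprr1b, Sprr3, Sprr1a and Sprr4. Upstream sequences of the 10 members were taken from RefSeq (GRCm38.p6) and cover the 250 bases before the annotated start. These were searched on both strands for the AP-1 site TGANTCA, the octamer ATGCAAAT bound by POU factors, the TATA box TATAAA and the ETS core AGGAAG, none of which overlapped another in these windows. AP-1 sites were found in 8 of the 10 and in 6.75% of 32851 promoters of the same length. The octamer was found in 6 of the 10, which are the 6 Sprr2 members, and in 1.6% of all promoters. The TATA box was found in 9 of the 10 against 12.4%, and the ETS core in 3 of the 10 against 29.5%.

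The upstream sequences of 4 members are shown because they set the members with large and small differences under stripping side by side. Capitals mark AP-1 and octamer matches. Sprr1a lies at chr3:92485882-92486131 on the minus strand, Sprr1b at chr3:92438780-92439029 on the minus strand, Sprr2d at chr3:92338890-92339139 on the plus strand and Sprr2f at chr3:92364937-92365186 on the plus strand.
Sprr1a: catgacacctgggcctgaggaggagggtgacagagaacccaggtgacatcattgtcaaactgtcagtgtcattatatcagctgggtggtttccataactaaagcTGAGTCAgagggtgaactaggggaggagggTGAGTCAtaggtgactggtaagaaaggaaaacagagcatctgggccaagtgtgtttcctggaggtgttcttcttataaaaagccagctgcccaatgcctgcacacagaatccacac
Sprr1b: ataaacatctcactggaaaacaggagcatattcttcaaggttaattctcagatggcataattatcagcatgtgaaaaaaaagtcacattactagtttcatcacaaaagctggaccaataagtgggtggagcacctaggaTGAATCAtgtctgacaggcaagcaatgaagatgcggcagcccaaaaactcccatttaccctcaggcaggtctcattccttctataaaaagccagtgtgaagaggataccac
Sprr2d: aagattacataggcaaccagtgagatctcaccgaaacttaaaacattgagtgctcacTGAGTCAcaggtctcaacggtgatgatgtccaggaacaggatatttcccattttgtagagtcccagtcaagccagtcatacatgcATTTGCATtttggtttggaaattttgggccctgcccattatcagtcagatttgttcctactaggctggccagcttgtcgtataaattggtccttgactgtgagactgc
Sprr2f: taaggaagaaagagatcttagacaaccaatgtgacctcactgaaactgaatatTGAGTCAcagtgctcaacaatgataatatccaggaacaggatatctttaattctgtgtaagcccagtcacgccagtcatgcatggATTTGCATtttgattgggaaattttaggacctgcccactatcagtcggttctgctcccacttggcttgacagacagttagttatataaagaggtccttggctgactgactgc

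Counting back from the start, Sprr1a held 2 AP-1 matches, whose first bases were -146 and -116, and Sprr1b held 1 at -111. In Sprr2d the AP-1 match began at -193 and the octamer at -108, and in Sprr2f at -197 and -112. Sprr2h (-198 and -109) and Sprr2i (-193 and -108) showed the same order. Aligned end to end, the Sprr2 windows shared 57.0% to 88.9% of alignment columns (15 pairs), against 44.3% to 53.3% in the 30 other pairs. Sprr2d was 76.9% identical to Sprr2i and 65.0% to Sprr2h. A match describes these letters only and is not evidence of binding.

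**Figure D1:**
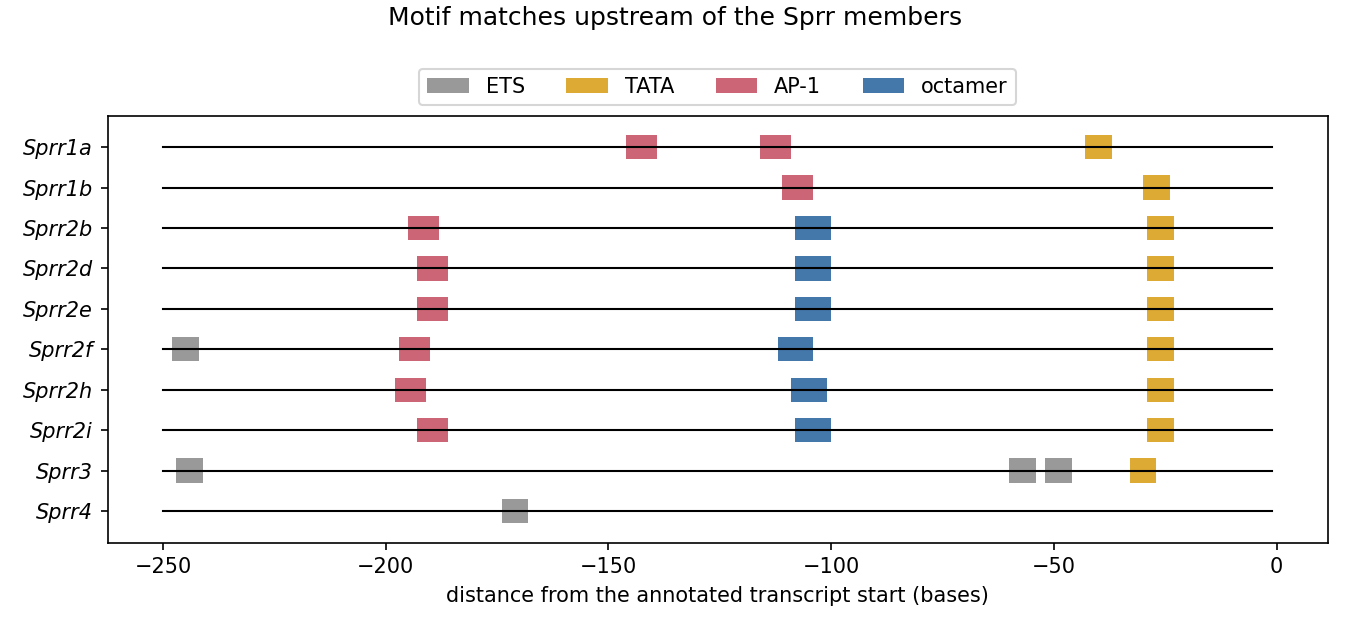
Motif matches in the 250 bases before the annotated start of the 10 members; the horizontal axis gives the distance from the start in bases, and coloured bars mark AP-1, octamer, TATA and ETS matches on either strand. The 6 Sprr2 members have an AP-1 match between -198 and -187 and an octamer between -112 and -101, while Sprr1a and Sprr1b have AP-1 matches between -146 and -105 and no octamer.

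The first comparison asked how repeated stripping altered the family. Sprr1b, Sprr2d and Sprr2h rose more than 20-fold in stripped skin. Sprr1a, already at 12.12 in unstripped skin, differed by 0.51 and did not pass the test. Sprr2f and Sprr2i had higher means in TS but scattered widely between mice and did not pass. In all, 3 of 6 measured members rose and none fell, by limma at adjusted p under 0.05 with a difference of at least 0.01. Of all probe sets 4.97% were called higher and 5.14% lower, and of the varying ones 18.7% and 19.4%. At unadjusted p under 0.05 the counts of members were 5 and 0, and no share over all probe sets was computed at that threshold. The median difference of the 6 members was 3.33, beside 0.00317 over all varying probe sets.

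Sprr1b encodes one of the 2 Sprr1 precursors, which in mice are found in stratified epithelia. Its values ran from 8.01 through a median of 8.82 to 9.33 in NT, and from 12.96 through 13.84 to 14.54 in TS. The lowest stripped array lay more than 3 log2 units above the highest unstripped one. The rise was 5.09 (SE 0.46, 33.9-fold, adjusted p = 4.55e-06), the fourth largest rise among all probe sets.

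Sprr2d, of the Sprr2 subfamily of envelope precursors, ran from 6.78 (median 7.51) to 8.36 in NT and from 11.37 (median 12.20) to 12.87 in TS. It rose by 4.63 (SE 0.35, 24.7-fold, adjusted p = 9.4e-07). Sprr2h, another Sprr2 precursor, ran from 6.15 (median 7.34) to 7.92 in NT and from 9.9986 (median 11.81) to 12.66 in TS. It rose by 4.48 (SE 0.45, 22.3-fold, adjusted p = 1.04e-05). The groups of these 3 members did not overlap; among varying probe sets 12.2% had TS wholly above NT. The Sprr2h probe set carries the suffix that Affymetrix gives to sets whose probes match transcripts of more than one gene, and reads of near-identical Sprr2 paralogues cannot be separated in it.

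Sprr2f ran from 5.82 (median 6.23) to 7.63 in NT and from 6.13 (median 8.65) to 10.65 in TS, so the groups overlapped and 4 of 6 stripped arrays exceeded every unstripped one. Its difference was 1.96 (SE 0.66, 95% interval 0.55 to 3.37, adjusted p = 0.059). Sprr2i ran from 5.50 (median 6.33) to 8.02 in NT and from 6.76 (median 8.54) to 11.42 in TS, again with 4 of 6 above every unstripped array. Its difference was 2.17 (SE 0.78, 95% interval 0.51 to 3.84, adjusted p = 0.078). No fold is given for either, because the NT means of 6.43 and 6.39 lie below the middle of the array medians. Both passed when limma was fitted to varying probe sets only (adjusted p = 0.0177 for Sprr2f and 0.0244 for Sprr2i). They also passed without TS 1 (0.0466 and 0.0448). Sprr2f also passed without NT 4 (adjusted p = 0.0475) or TS 4 (0.0123). In most alternatives neither passed. Sprr2f failed in 15 of 18 fits without 1 array and in 5 of 9 other settings, and Sprr2i in 17 of 18 and in 6 of 9.

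Sprr1a, the other Sprr1 precursor, ran from 11.77 (median 12.22) to 12.38 in NT and from 11.82 (median 12.76) to 12.90 in TS. Of the 6 stripped arrays 5 lay above every unstripped one, and TS 1 stood low at 11.82. The difference of 0.51 (SE 0.29) had a 95% interval of -0.10 to 1.12 and did not pass (adjusted p = 0.312), which does not show that the groups are alike.

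**Figure D2:**
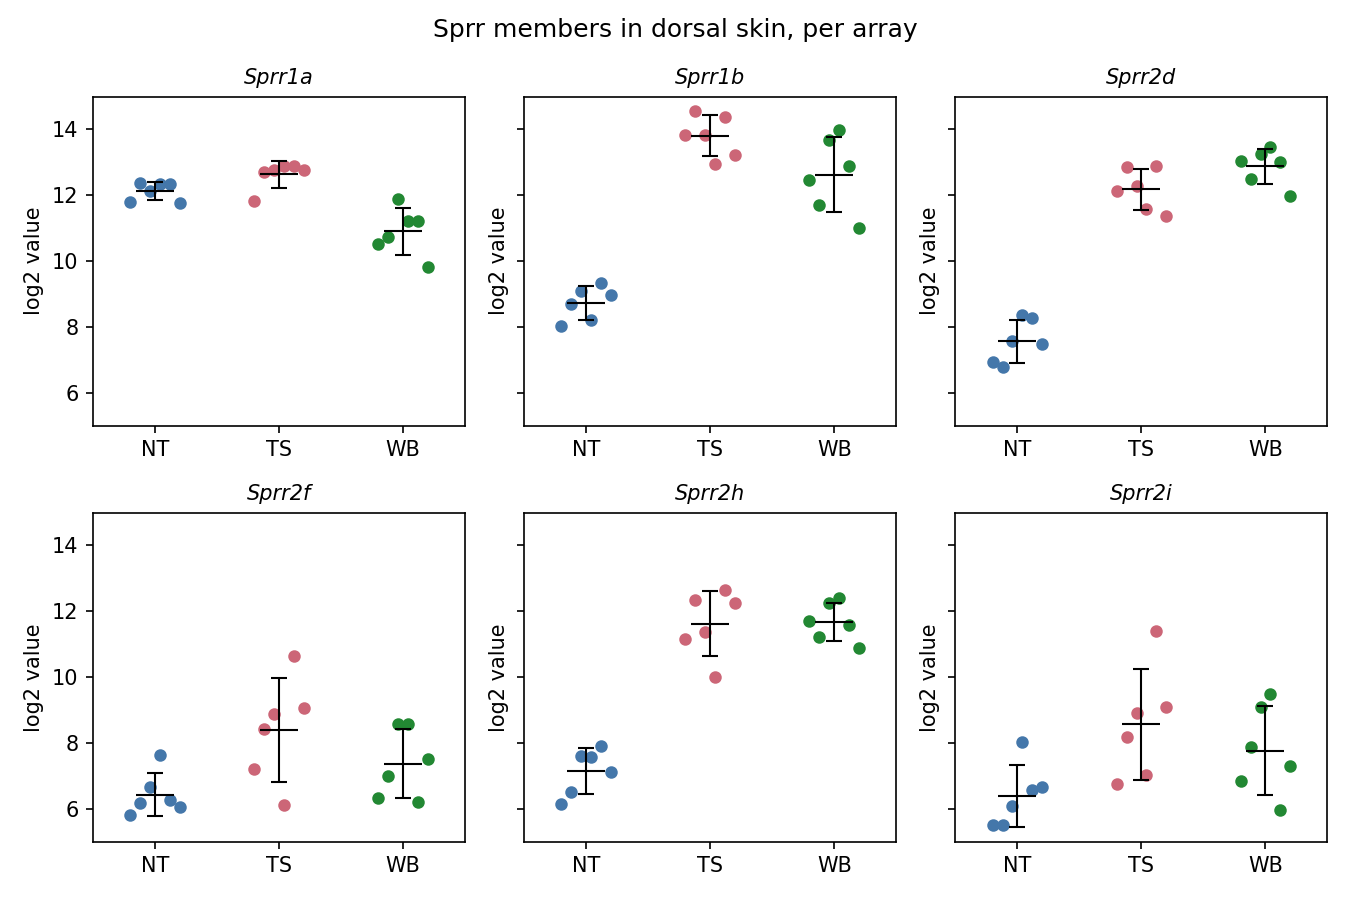
Deposited log2 values of the 6 measured members on each array of NT, TS and WB (points), with the mean and SD of 6 arrays (bars); levels of different probe sets are not comparable with each other. Sprr1b, Sprr2d and Sprr2h of stripped skin lie wholly above NT, Sprr2f and Sprr2i spread over several units in TS and WB, and Sprr1a in WB has a mean of 10.90 against 12.12 in NT.

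Within an array, the difference between a pair of members shows whether they changed unequally. Of the 15 pairs 9 differed in their change between NT and TS (exact permutation test of 6 against 6 arrays, two-sided, adjusted over the pairs). The change of Sprr1a minus that of Sprr1b was -4.58 (SE 0.38), minus that of Sprr2d -4.12 (SE 0.39) and minus that of Sprr2h -3.97 (SE 0.49); each exact permutation p was 0.00216, the smallest that 6 against 6 arrays allow, and 0.00541 adjusted. The 3 members that rose also rose more than Sprr2f and Sprr2i changed, by 2.31 to 3.13 (exact permutation p adjusted, 0.00541 to 0.0108). Sprr2d and Sprr2h differed from each other by 0.15 (SE 0.37, exact permutation p = 0.697), and Sprr2f and Sprr2i by -0.21 (SE 0.32, exact permutation p = 0.513). The changes of Sprr1a differed from those of Sprr2f and Sprr2i by -1.45 and -1.66 without passing (exact permutation p adjusted, 0.0649 and 0.0584). The NT means of Sprr2f (6.43) and Sprr2i (6.39) lie below the middle of the array medians, and that of Sprr1a was 12.12. Whether different probe sets at such levels read equal changes of RNA as equal was not tested, which limits every comparison of pairs here. The probe sets of Sprr2d and Sprr2i read unequal changes, and the upstream windows share 76.9% of columns and the same AP-1 and octamer positions. Any relation between upstream windows and changes was not tested.

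Stripped mice were not ordered alike by all members. TS 5 was the highest stripped array for Sprr2d, Sprr2f, Sprr2h and Sprr2i, at 12.87, 10.65, 12.66 and 11.42. TS 4 was the lowest for Sprr1b, Sprr2f and Sprr2h and the highest for Sprr1a, at 12.90. Among unstripped mice NT 4 was the highest for Sprr2d, Sprr2f and Sprr2i. The same arrays, NT 4 and TS 5, had the highest mean of the neutrophil list in their groups, 10.71 and 11.01, beside 7.76 to 8.58 on the other NT arrays and 8.36 to 10.11 on the other TS arrays. Only 3 of the 6 genes of that list on the array vary, S100a8, S100a9 and Mpo, and keratinocytes also express the first 2. The granule genes Elane and Camp and the receptor gene Cxcr2 do not vary and give no information. TS 4 had the lowest mean of that list in TS (8.36) and the lowest epidermal marker mean (11.50). In WB the list was highest on WB 3 (9.65) and next on WB 4, and each member had its highest WB value on one of these arrays. The epidermal marker mean was highest there too, at 11.30 and 11.32, beside 10.87 to 10.99 on the other WB arrays. The part of these signals in the Sprr values was not tested.

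**Figure D3:**
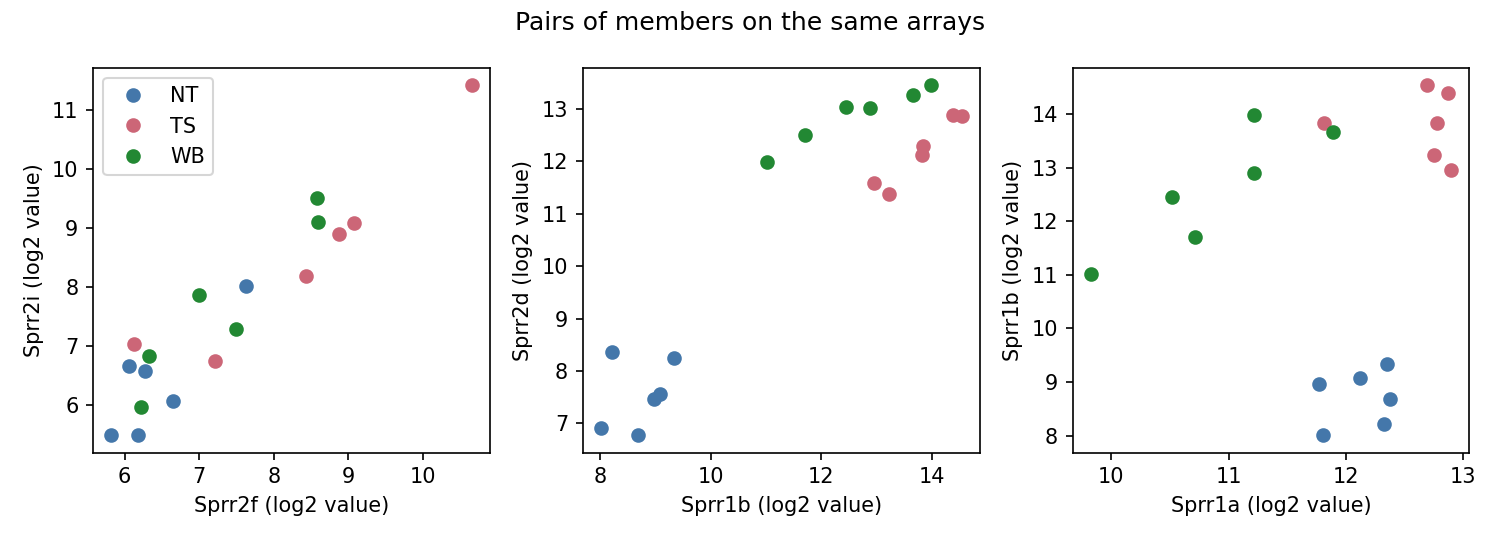
Log2 values of 3 pairs of members on the same arrays, coloured by group, each point 1 array. Sprr2f and Sprr2i line up across all groups with TS 5 at the top right (10.65 and 11.42); Sprr1b and Sprr2d fall into a low NT cloud and a high stripped cloud; Sprr1a spans 11.77 to 12.90 in NT and TS while Sprr1b moves from 8.01 to 14.54.

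The epidermal marker mean was 0.60 higher in TS than in NT, and the muscle and adipocyte differences were -2.55 and -1.51. The 18 epidermal markers moved unequally. Of them 12 rose, among them Dsc1 by 2.39, and 1 fell, Krt15 with a difference of -0.95. Values relative to their mean in TS against NT rest on that list, which is not a plain measure of epidermal content. Taken relative to the epidermal markers of each array, which lowers the median of all varying probe sets by 0.60, Sprr1b was 4.48 higher, Sprr2d 4.02 and Sprr2h 3.88. Sprr2f (1.36, adjusted p = 0.0036) and Sprr2i (1.57, adjusted p = 0.00413) passed on that scale, and Sprr1a stood at -0.093 without passing (adjusted p = 0.655). That scale also shifts the 73.5% of probe sets that do not vary, all alike within an array. Its adjustment over all probe sets is therefore not comparable with that of the main fit, and these passes are not read as support. Without NT 5 and with the WB arrays left out of the fit, a setting chosen after the data were seen, the same 3 members rose, by 5.21, 4.77 and 4.64.

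Among 42 other envelope genes on the array, of which 41 vary, 19 rose and 3 fell with stripping, beside 19.1% higher and 20.4% lower among the leading probe sets of all varying genes. Their median difference was 0.55, beside 0.00284 over those genes. On the scale relative to epidermal markers the split was 12 higher and 13 lower. That scale lowers the median of all varying probe sets by 0.60, and shares over all genes were not computed on it. Krt1, Krt10, Dsp and Krtdap of this list are also among the epidermal markers. Repetin (Rptn), an S100 fused-type envelope protein, went from 5.09 ± 0.62 to 13.29 ± 0.51. The cross-linking enzymes Tgm1, Tgm3 and Tgm5 rose by 1.23 (SE 0.11), 1.66 (SE 0.26) and 0.48 (SE 0.05). Involucrin (Ivl), an early scaffold of the envelope, rose by 0.49 (SE 0.12). Loricrin (Lor), the main envelope component, had a difference of 0.51 (SE 0.23), which missed the threshold (adjusted p = 0.169). The cysteine protease inhibitor Csta1 rose by 1.07 (SE 0.08) and the keratinocyte caspase Casp14 by 2.35 (SE 0.23). Filaggrin (Flg), which bundles keratin filaments, rose by 1.05 (SE 0.16). Only Rptn among these rose by more than the 3 Sprr members that passed.

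A list of 36 genes holds transcription factors known for acting in keratinocyte differentiation or on Sprr promoters, plus Keap1, which is not one. Keap1 does not vary, and 29 of the others do. With stripping 14 rose and 1 fell, beside 19.1% called higher and 20.4% lower among the leading probe sets of all varying genes. Relative to epidermal markers the split was 4 higher and 19 lower. That scale lowers the median of all varying probe sets by 0.60, and shares over all genes were not computed on it. The split is therefore not read as a trait of this group. Trp63 and Grhl3 of this list are also among the epidermal markers. Ovol1, a zinc finger factor of epidermal differentiation, rose by 1.04 (SE 0.13), the grainyhead factors Grhl3 and Grhl2 by 0.92 (SE 0.13) and 0.56 (SE 0.07), and the ETS factor Ehf by 0.51 (SE 0.08). The interferon-regulated factor Irf1 fell by 0.50 (SE 0.07).

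The second comparison asked how stripped skin of extract-fed mice differed from stripped skin without extract. Sprr1a fell by 1.73 and Sprr1b by 1.18, while Sprr2d, Sprr2f, Sprr2h and Sprr2i did not pass. Thus 2 of 6 measured members fell and none rose by limma. Of all probe sets 12.5% were called higher and 11.1% lower, and of the varying ones 47.1% and 41.7%, so fewer members were called than in the background. At unadjusted p under 0.05, 0 members were higher and 2 lower, and no share over all probe sets was computed at that threshold. No member's groups were apart, beside 40.3% of varying probe sets wholly higher and 37.3% wholly lower. Between TS and WB the beta-actin control difference moved by 5.53, and the epidermal marker mean moved by -0.63. The 18 epidermal markers did not move together: 6 rose, among them Trp63 by 1.35 and Dsc1 by 0.85, and 9 fell, with differences of -3.44 for Sfn, -3.20 for Krt5 and -2.88 for Krt14. Values relative to their mean in WB against TS rest on that mixed list.

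Sprr1a ran from 9.83 (median 10.97) to 11.89 in WB, and 5 of 6 arrays lay below every TS array. The fall was 1.73 (SE 0.29, 3.33-fold, adjusted p = 9.18e-05) and passed in all 18 fits without 1 array and in all 8 other settings. Sprr1b ran from 11.01 (median 12.67) to 13.99, with 4 of 6 arrays below every TS array. Its fall of 1.18 (SE 0.46, 2.26-fold) sat at the threshold (adjusted p = 0.0482). It was lost in 14 of 18 fits without 1 array, after quantile normalization (-0.84, adjusted p = 0.103), relative to epidermal markers (-0.54, adjusted p = 0.0572) and in a fit of the 12 arrays alone (adjusted p = 0.0988).

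Sprr2d ran from 11.97 (median 13.02) to 13.45 in WB, with 4 of 6 arrays above every TS array. Its difference of 0.69 (SE 0.35, 95% interval -0.06 to 1.44) did not pass (adjusted p = 0.131). It passed as higher after quantile normalization (1.01, adjusted p = 0.00933) and relative to epidermal markers (1.33, adjusted p = 1.42e-06). Sprr2h ran from 10.88 (median 11.64) to 12.41, within the range of TS, and differed by 0.045 (95% interval -0.91 to 0.99). Relative to epidermal markers, a scale that raises the median of all varying probe sets by 0.63, Sprr2h also passed as higher (0.68, adjusted p = 0.0223). On that scale 2 members were higher and 1 lower, and after quantile normalization 1 and 1. Quantile normalization raises the median of all varying probe sets by 0.096. Shares of all probe sets called were not computed for either setting. Both settings also move the probe sets that do not vary, so their adjusted p is not comparable with that of the main fit. The passes of Sprr2d and Sprr2h in them are therefore not read as support for a rise.

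Sprr2f ran from 6.22 (median 7.25) to 8.59 in WB and Sprr2i from 5.98 (median 7.58) to 9.50. Their differences from TS were -1.03 (95% interval -2.44 to 0.39) and -0.80 (95% interval -2.47 to 0.87), adjusted p = 0.248 and 0.474. Without TS 5 they were -0.58 and -0.23, and without WB 5 that of Sprr2i was -0.44. All 6 WB arrays of Sprr2f and 5 of 6 of Sprr2i lay within the TS range. Within arrays, the change of Sprr1a minus that of Sprr2d was -2.43 (SE 0.35), that of Sprr1b minus Sprr2d -1.87 (SE 0.27) and that of Sprr1a minus Sprr2h -1.78 (SE 0.45). Each of these 3 pairs had an exact permutation p of 0.00216 (0.0108 adjusted over 15 pairs), and the other 12 pairs did not pass. WB 6 was the lowest extract-fed array for Sprr1a, Sprr1b, Sprr2d and Sprr2h, and WB 4 the highest for Sprr1b, Sprr2d, Sprr2h and Sprr2i.

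**Figure D4:**
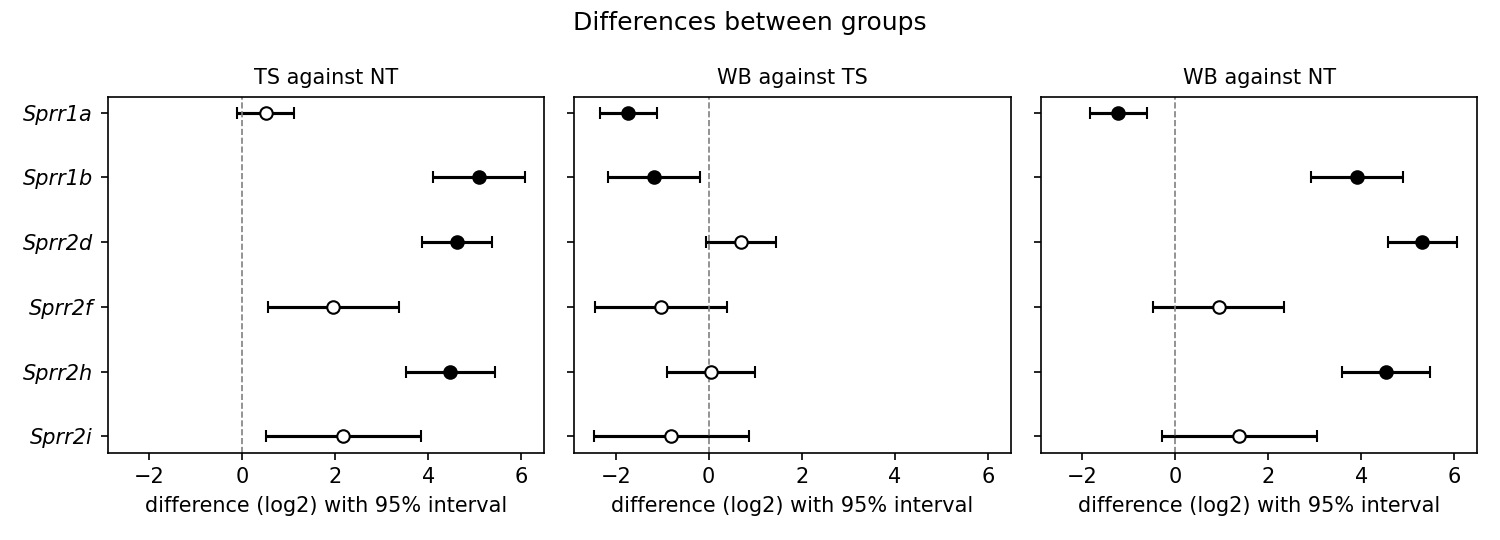
Difference between group means of the 6 measured members on the log2 scale with 95% intervals from the fit of 18 arrays; filled points passed at adjusted p under 0.05. Sprr1b, Sprr2d and Sprr2h lie between 3.91 and 5.32 above NT in both stripped groups, and only Sprr1a (-1.73) and Sprr1b (-1.18) passed in WB against TS.

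The third comparison set stripped skin of extract-fed mice against unstripped skin. It shares its arrays with the other comparisons and is not independent of them. Sprr2d stood 5.32 above NT (SE 0.35, 39.8-fold, adjusted p = 2.07e-09), Sprr2h 4.52 (SE 0.45, 23.0-fold, adjusted p = 2.8e-07) and Sprr1b 3.91 (SE 0.46, 15.0-fold, adjusted p = 2.46e-06). The groups of these 3 members did not overlap, which held for 42% of varying probe sets in that direction. Sprr1a fell by 1.22 against NT (SE 0.29, 2.34-fold, adjusted p = 0.002). Sprr2f (0.93, SE 0.66, adjusted p = 0.295) and Sprr2i (1.37, SE 0.78, adjusted p = 0.174) did not pass. With 3 members higher and 1 lower of 6, the shares called were 12.1% and 11.6% of all and 45.7% and 43.6% of varying probe sets. Of the 15 pairs 13 differed in their change; Sprr2d stood 0.79 further above NT than Sprr2h (exact permutation p adjusted, 0.00325). By level, Sprr1b, Sprr2d and Sprr2h were lowest in NT. TS and WB did not pass for Sprr2d and Sprr2h, and Sprr1a was lowest in WB, with NT and TS not separated.

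Among the envelope genes, 16 of 42 rose and 13 fell in WB against TS, beside background shares of leading probe sets of 48.2% and 39.7%. Relative to epidermal markers the counts were 25 and 7. That scale raises the median of all varying probe sets by 0.63, and background shares were not computed on it. On the deposited scale 21 were higher and 11 lower in WB against NT, beside 46.8% and 41.7%. Krtdap, a keratinocyte differentiation gene, fell by 0.95 (SE 0.04), Tgm1 fell by 1.89 (SE 0.11), annexin Anxa1 fell by 0.53 (SE 0.04) and periplakin (Ppl), a scaffold plakin, fell by 1.88 (SE 0.14), while S100a10 rose by 0.53 (SE 0.05). Tgm3 fell by 0.84 (SE 0.26), Flg rose by 0.61 (SE 0.16) and Rptn by 0.95 (SE 0.32). Lor (0.37, SE 0.23) and Ivl (-0.30, SE 0.12) did not pass (adjusted p = 0.215 and 0.053). Relative to epidermal markers 21 of the transcription factor genes rose and 6 fell, again without background shares on that scale. On the deposited scale 14 rose and 11 fell, beside the same background shares of 48.2% and 39.7%. Stat3 fell by 1.58 (SE 0.04), Ets1 fell by 2.05 (SE 0.13), the oxidative stress factor Nfe2l2 fell by 0.94 (SE 0.07) and Irf1 fell by 0.86 (SE 0.07), and Grhl2 rose by 1.21 (SE 0.07).

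Further probe sets of the family, outside the member rule, gave another picture in extract-fed skin. Sprr2k, the last Sprr2 gene before Sprr1b, ran from 7.61 to 7.79 in NT, from 8.13 to 8.71 in TS and from 7.41 to 7.58 in WB. It rose by 0.77 with stripping (SE 0.08, adjusted p = 1.7e-05) and fell by 0.97 in WB against TS (SE 0.08, adjusted p = 4.18e-08). All 6 WB arrays lay below every NT array, a difference of -0.20 that did not pass (adjusted p = 0.0534). Among varying probe sets 39.7% had WB wholly below NT. Another pair of varying probe sets each carries several symbols of the Sprr2 subfamily, so no single gene is named for them. The symbols are Sprr2a1, Sprr2a2 and Sprr2a3 for the first and Sprr2a1 and Sprr2a2 for the second. The first has the suffix x, which Affymetrix gives to sets with probes that may cross-hybridise, and the second the suffix a. The first ran from 6.9991 to 8.23 in NT, from 11.25 to 13.91 in TS and from 7.03 to 8.32 in WB. The second ran from 6.33 to 8.02, from 11.40 to 14.14 and from 6.30 to 7.27. Both rose with stripping, by 4.54 (SE 0.37) and 5.03 (SE 0.39), and in WB against TS their differences were -4.56 (SE 0.37, adjusted p = 3.29e-08) and -5.66 (SE 0.39, adjusted p = 3.71e-09). Against NT their WB differences were -0.016 (95% interval -0.81 to 0.78) and -0.63 (95% interval -1.46 to 0.19), without passing, while Sprr2d and Sprr2h stood 5.32 and 4.52 above NT. The positions of the probes along the transcripts were not used here, and the part of the WB control difference in these falls was not tested. A further set, with the symbols of the second, did not vary, and that of the pseudogene Sprr2j-ps differed by 0.55 in TS against NT without passing (adjusted p = 0.0986).

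**Figure D5:**
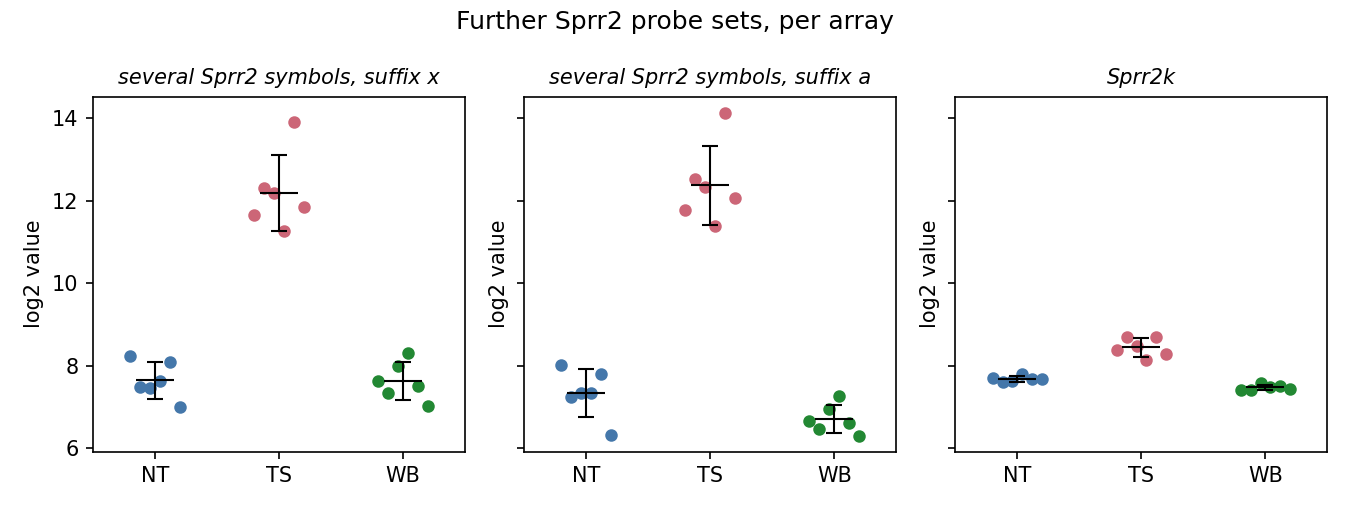
Log2 values on each array of NT, TS and WB (points, with mean and SD of 6 arrays) for 2 probe sets with several Sprr2 symbols and for Sprr2k. All 3 lie higher in every TS array than in any NT or WB array, and the WB arrays lie at 7.03 to 8.32, 6.30 to 7.27 and 7.41 to 7.58.

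Across the 18 arrays, the mean of the 6 centred members was most closely followed, among 7438 varying genes outside the family list, by Stfa2l1, a stefin-type protease inhibitor gene (r = 0.967), the late envelope gene Lce3f (0.954), the connexin gene Gjb6 (0.948), Nt5dc2 (0.940), the glutathione transferase gene Gsto1 (0.936) and Trmt10c (0.932). These coefficients describe 18 arrays in 3 groups and carry the group differences. Over the 12 NT and TS arrays they were 0.976, 0.989, 0.978, 0.939, 0.955 and 0.953. For deviations from group means they were 0.831, 0.889, 0.847, 0.670, 0.700 and 0.717. Lce3f rose by 4.07 with stripping and Gjb6 by 2.91, Stfa2l1 by 4.27, Gsto1 by 1.82 and Nt5dc2 by 1.72, and Trmt10c by 0.020.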

How the data were processed

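Per the labels' protocols, RNA was isolated with Isogen followed by an RNeasy kit, and 100 ng of total RNA per mouse was labelled for Affymetrix mouse genome arrays. The deposited table holds 1 log2 value per probe set and array (2.93 to 19.04); the sources used here name neither how the authors summarised and normalized it nor its log base. No scanner files were used. The table has no depth or background measure, and the number of arrays limits precision.

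Of 45101 probe sets, 64 controls were left out. limma 3.58.1 in R 4.3.3 was fitted to 45037 probe sets and all 18 arrays without covariates (two-sided, Benjamini-Hochberg over all probe sets per comparison). Every adjusted p is from this fit, or from a named alternative setting, unless a permutation test is named. It was tested on simulated data. Symbols come from the platform annotation: 34957 probe sets have 1, 920 several and 9160 none. A gene of the context lists is represented by its varying probe set with the highest mean.

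Members, lists and tests were chosen with earlier results of these data known, and the motifs with the upstream sequences at hand. Named were all members, and of each list the 5 smallest p in TS against NT and in WB against TS plus Lor, Ivl, Rptn, Flg, Tgm1 and Tgm3, and the 6 genes most like the members' mean. Sprr2k, Sprr2j-ps and the probe sets with several symbols were added after their values were seen. Alternatives were quantile normalization, median centring, epidermal markers as reference, a filter on dim probe sets, varying probe sets only, array weights, 12 arrays only, the replicate number as a block and leaving out each array. Upstream windows were aligned with Biopython 1.88.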

Additional observations from a re-analysis of the deposited data

Results flagged for a closer look

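Sprr1a on TS 1 read 11.82, while the next lowest stripped array read 12.69; the gap was 0.806 of the range of the 6 TS arrays, above Dixon's 95% critical value for 6 samples. Of the 18 sets of 6 arrays examined (6 members in 3 groups) this was the only one, and chance alone marks about 1 in 20. Without TS 1 the difference of Sprr1a between TS and NT was 0.67 and did not pass (limma, adjusted p = 0.138).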

How the results depend on the processing

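The rises of Sprr1b, Sprr2d and Sprr2h over NT, in TS and in WB, and the falls of Sprr1a in WB kept their direction and passed in every alternative run. In TS against NT, 5 members were called higher with array weights, among varying probe sets only and relative to epidermal markers, because Sprr2f and Sprr2i then passed, and 3 to 5 without 1 array. In WB against TS, 1 member was called lower after quantile normalization, relative to epidermal markers, in the 12 arrays alone and with the replicate block, and 1 to 2 without 1 array; higher calls were 1 after quantile normalization and 2 relative to epidermal markers. Shares over all probe sets were not computed for these settings. Quantile normalization, median centring and epidermal markers as reference also move the probe sets that do not vary. Adjusted p in those settings is not comparable with that of the main fit. Sprr1a in TS against NT turned to -0.093 relative to epidermal markers. Sprr2h in WB against TS ranged from -0.28 to 0.25 without 1 array and was below 0 without TS 1, TS 3, TS 4, WB 3 or WB 4. In the same comparison Sprr2f ranged from -1.48 to -0.58 and Sprr2i from -1.16 to -0.23, both nearest 0 without TS 5.

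Relative to epidermal markers, envelope genes were called 12 higher and 13 lower in TS against NT and 25 and 7 in WB against TS, and transcription factor genes 4 and 19 in TS against NT and 21 and 6 in WB against TS. With array weights 29 envelope genes were higher in TS against NT, and 10 to 16 were higher in WB against TS without 1 array, the 10 without TS 5. Transcription factor genes lower in TS against NT numbered 3 with array weights, 2 with the replicate block, among varying probe sets only and without dim probe sets, and 1 to 2 without 1 array. Shares over all genes were not computed for these settings. The cause of these shifts was not tested.

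Replicate numbers did not pair the arrays: same-numbered arrays of different groups correlated at -0.268 to 0.138 in their deviations, over 0.1 in 4 of 18 pairs. With the replicate block, pairs of members that differed in their change numbered 0 in TS against NT and 0 in WB against TS, and 12 in WB against NT; the paired exact test over 6 differences passes only when most pairs reach its smallest p. Each member has 1 probe set, so averaging a member's probe sets changes nothing. The table holds no background measure, so which low values are measured above background cannot be told.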
